A study of Mus musculus with 99 samples.

Results

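A set of 9 transcription factors and cofactors that specify and maintain hair cells, Atoh1, Pou4f3, Gfi1, Barhl1, Lhx3, Six2, Eya1, Sox2 and Gata3, were followed through single hair cells of the mouse cochlea. They were chosen by name, for their known role, and all 9 were among the 55291 genes of the count table. The cells were 32 wild-type outer hair cells (OHCs) at postnatal day 30, of genotype Slc26a5-CreER/+; Ai9/+, and 67 converted inner hair cells (cIHCs) at postnatal day 42, of genotype Slc26a5-CreER/+; Rosa26Tbx2/+. Both groups came from C57BL/6 mice that carry the prestin-driven, inducible Cre; Ai9 is a tdTomato reporter, and the Rosa26 allele supplies ectopic Tbx2 to cells that had Cre activity. The cIHCs therefore began as OHCs, and in both groups the red cells were picked by hand. Age and genotype differed together and cannot be told apart. The sex of the animals, which the labels do not give, differed as well by its transcripts: Xist reached 10 CPM in 4 OHCs and 55 cIHCs, and Y-linked genes did in 24 OHCs and 12 cIHCs; these are the cells called cells with Xist or Y-linked reads. Each GEO sample was 1 cell and no animal was named, so each group counted as 1 sample, and no p-value or standard error was computed. No endogenous inner hair cell (IHC) was among the labelled cells.

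Hair cells arise from Sox2-positive progenitors under the control of Atoh1, a basic helix-loop-helix activator that is switched on early and silenced as the cells mature. Pou4f3, a POU homeodomain factor activated by Atoh1, then sustains the cells together with its targets Gfi1, a zinc finger repressor, and Lhx3, a LIM homeodomain factor. Barhl1 is a homeodomain factor needed for long-term hair cell survival, Gata3 is a zinc finger factor of the early ear and of hair cells, and Eya1 is a coactivator and phosphatase that works with sine oculis-type homeodomain proteins, of which Six2 is one.

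All levels are in CPM, the reads of a gene per 1000000 reads counted, either per cell or pooled over the summed cells of a group. Intervals in brackets are exact 95% intervals and cover counting error only, since the reads carry no molecular identifiers and may be copies of 1 molecule; how much animals differ is not covered. Cells held 4677682 to 13792672 reads. The cIHC libraries contained reads of more genes, with a median of 8546 against 6068.5 in OHCs. Tbx2 had at most 0.123 CPM in any OHC and from 113 to 2643 CPM in the cIHCs. Each of 10 general hair cell markers had reads in both groups, with summed levels of 11444 to 18796 CPM per OHC and 5039 to 26747 CPM per cIHC. Of these 10, 2 (Myo15 and Lhfpl5) were at least 2-fold lower in cIHCs and 3 (Otof, Calb2 and Ptprq) at least 2-fold higher. All 9 OHC markers were at least 2-fold lower and all 8 IHC markers at least 2-fold higher in cIHCs. Among the 10041 genes compared below, 14.3% and 26.3% were. The 8 include Tbx2, which the Rosa26 allele supplies, so its rise was set by genotype. Tbx2, Atp2a3, Fgf8, Slc7a14, Shtn1 and Rprm reached 10 CPM only in the pooled cIHCs and had to come out higher. Slc26a5, Lbh, Chrna10 and Lmod3 reached it only in the pooled OHCs and had to come out lower. Fgf8 had reads in 26 of 67 cIHCs. These counts of markers are descriptions.

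The stretches upstream of 4 of the genes are shown because 3 of them, Lhx3, Six2 and Gfi1, had the lowest ratios of the 9 and Barhl1 had a ratio near 0. RefSeq promoter windows (GRCm38.p6, the same assembly as mm10) were found for 7 of the 9 members, in 10 windows; Pou4f3 and Eya1 had none in that table. Each stretch is printed 5′ to 3′ on the strand of the gene, from 250 bases before the RefSeq start, and bases that lie in an exon of the same gene in GENCODE M21 are left out. Capitals mark matches to the motifs listed after the sequences. Lhx3 also had another RefSeq start, downstream of the one shown.
Lhx3, chr2:26208290-26208499, minus strand: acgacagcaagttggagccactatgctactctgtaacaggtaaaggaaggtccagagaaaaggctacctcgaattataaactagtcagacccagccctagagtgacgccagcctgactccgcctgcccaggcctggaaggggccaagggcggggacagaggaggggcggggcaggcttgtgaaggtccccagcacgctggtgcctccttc
Six2, chr17:85688275-85688504, minus strand: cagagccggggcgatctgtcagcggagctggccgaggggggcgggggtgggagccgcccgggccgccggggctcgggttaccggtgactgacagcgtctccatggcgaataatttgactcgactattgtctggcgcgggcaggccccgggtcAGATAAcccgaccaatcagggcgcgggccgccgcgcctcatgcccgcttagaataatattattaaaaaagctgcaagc
Gfi1, chr5:107724344-107724593, minus strand, the downstream one of 2 starts: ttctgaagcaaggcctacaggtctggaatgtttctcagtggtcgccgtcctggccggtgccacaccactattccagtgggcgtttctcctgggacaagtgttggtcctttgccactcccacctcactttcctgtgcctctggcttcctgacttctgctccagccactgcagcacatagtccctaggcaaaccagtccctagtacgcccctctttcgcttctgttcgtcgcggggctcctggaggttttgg
Barhl1, chr2:28916669-28916918, minus strand, the upstream one of 2 starts: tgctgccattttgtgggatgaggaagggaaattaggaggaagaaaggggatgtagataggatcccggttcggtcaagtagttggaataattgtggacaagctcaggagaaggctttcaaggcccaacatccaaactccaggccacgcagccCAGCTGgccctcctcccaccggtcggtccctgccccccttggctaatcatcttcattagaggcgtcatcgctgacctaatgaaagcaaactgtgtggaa

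In all, 4 motifs were searched on both strands of the 300-base windows from 250 bases before to 50 after the start. The T-box core GGTGTGA, a form that Tbx2 and its relatives can bind, was found in none of the 10 member windows and in 3.98% of all 32851 windows. The E-box CAGCTG, a form that Atoh1 can bind, was found in both Barhl1 windows and the Gata3 window, at positions -99, -15 and -1 relative to the start, and in 16.3% of all windows. The letters AGATAA, which GATA factors can bind, were found at -98 of Six2 and at 44 in the downstream Barhl1 window, and in 11.2% of all windows. AAATCAC, a core of the Gfi1 motif, was found at -30 of the downstream Barhl1 window and in 3.20% of all windows. These motifs do not overlap each other in the windows shown. A match describes the letters only.

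Of the 9 genes, 7 reached 10 CPM in 1 or both groups and were compared with the 10041 genes that did so. Lhx3, Six2, Gfi1 and Pou4f3 were at least 2-fold lower in the pooled cIHCs, 4 of 7, where 14.3% of all compared genes were. Lhx3 reached 10 CPM only in the pooled OHCs (72.4 against 1.53 CPM), so it had to come out lower. None of the 7 was at least 2-fold higher, where 26.3% of all genes were. The other 3, Barhl1, Eya1 and Gata3, lay within 2-fold. Their 7 log2 ratios of cIHC over OHC had a median of -1.04, against 0.25 for all compared genes. With Sox2 and Atoh1 included, whose ratios rest on a few cells, the median was -0.16.

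**Figure D1:**
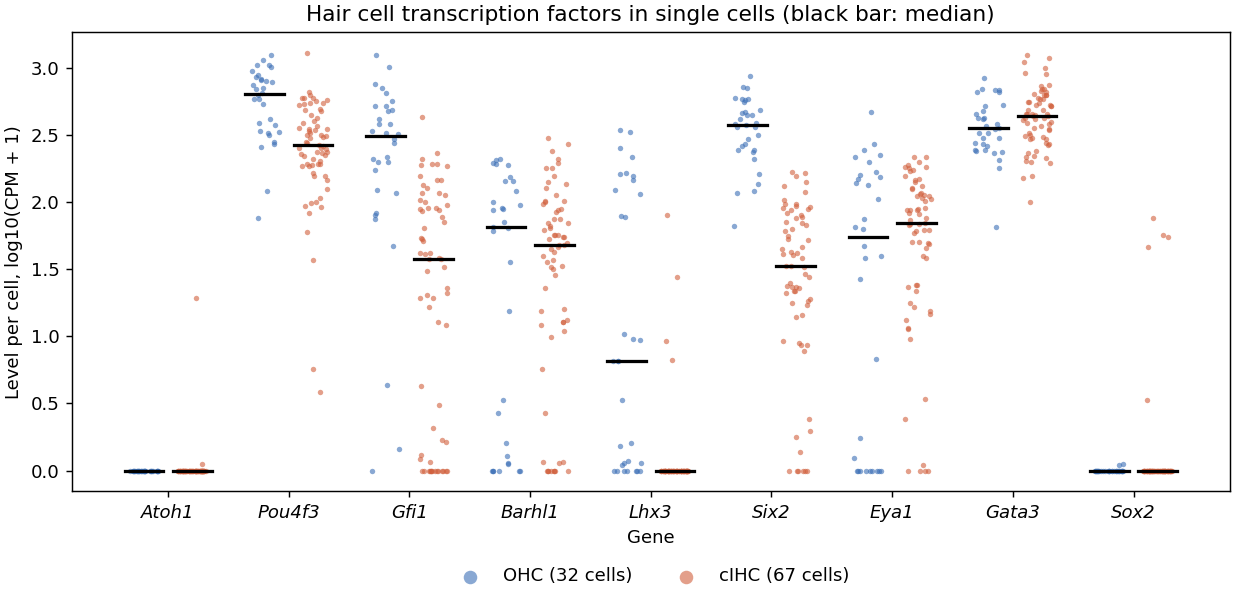
Level of each gene in each cell, as log10(CPM + 1), for 32 OHCs (blue) and 67 cIHCs (orange), with the median as a black bar. Six2 separates the groups most, with all 67 cIHCs under the OHC median of 377 CPM, while Gata3, Barhl1 and Eya1 overlap over most of their range.

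**Figure D2:**
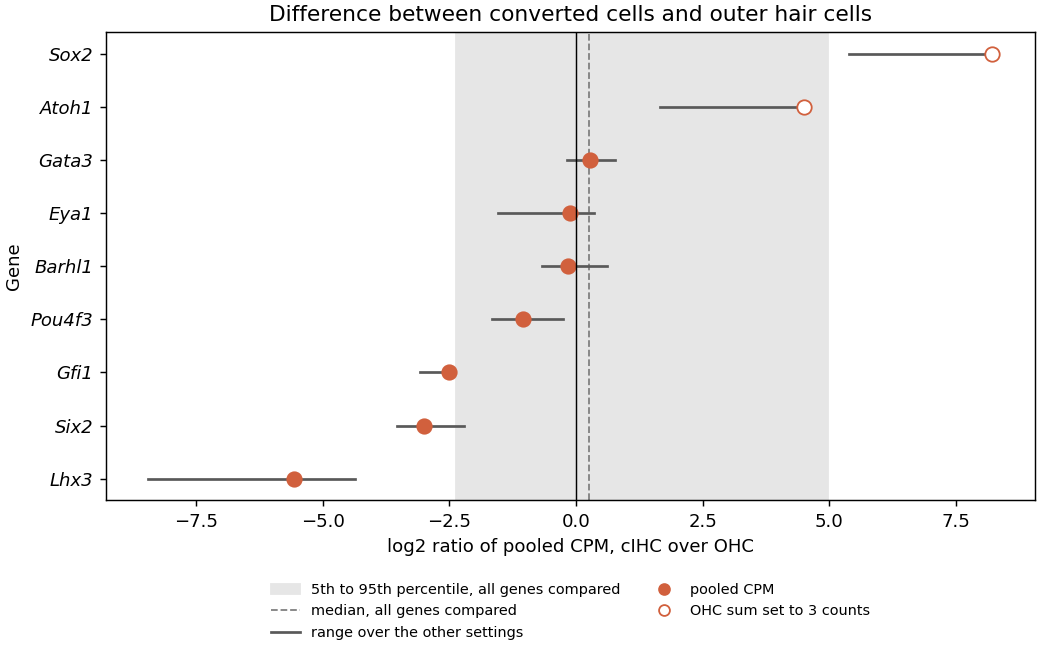
Log2 ratio of pooled CPM, cIHC over OHC, for the 9 genes (circles), with the range over the other settings (lines) and the 5th to 95th percentile of all compared genes (grey, -2.37 to 4.98). Open circles are ratios for which the OHC sum was set to 3 counts; Lhx3, Six2 and Gfi1 lie below the grey band.

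Pou4f3 was read in every cell of both groups. Its level per OHC ran from 75.9 over a median of 640 to 1259 CPM, and per cIHC from 2.84 over 264 to 1293 CPM. The groups overlapped, but 65 of 67 cIHCs lay below the OHC median and 4 lay below the lowest OHC. The pooled levels were 631 CPM (628 to 634) and 306 CPM (305 to 308), a log2 ratio of -1.04, and a cIHC was the higher cell in 19.4% of the 2144 pairs of 1 cIHC and 1 OHC. The ratio depended on the cells used. It was -1.66 between the 24 OHCs and 12 cIHCs that had Y-linked reads and -0.27, within 2-fold, between the 4 OHCs and 55 cIHCs that had Xist reads. Among the 29 OHCs and 66 cIHCs with at least 5770000 reads it was -0.98, and -0.91 once these were thinned to that depth, both within 2-fold.

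Gfi1, the repressor downstream of Pou4f3, had a median of 310 CPM in OHCs, from 0 to 1259 CPM, and 36.7 CPM in cIHCs, from 0 to 435 CPM. The highest cIHC was exceeded by 10 OHCs, and 66 of 67 cIHCs lay under the OHC median. Reads were present in 31 of 32 OHCs (96.9%, 83.8 to 99.9) and 53 of 67 cIHCs (79.1%, 67.4 to 88.1). The pooled level was 356 CPM (354 to 359) for OHCs against 62.7 CPM (62.1 to 63.4) for cIHCs, which is -2.51 as a log2 ratio, at percentile 4.66 of all compared genes. In GENCODE M21 the gene spans chr5:107716657-107726036, and 101 of its 3187 exon bases are shared with A430072P03Rik on the other strand. The pooled level of that gene was 2.05 CPM for OHCs and 5.91 CPM for cIHCs; whether the counting used strand is not given in the sources used here.

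Lhx3 showed the lowest ratio of the 9. In OHCs it had reads in 25 of 32 cells, but only 12 cells reached 10 CPM; the values ran from 0 over a median of 5.61 to 348 CPM. In cIHCs it had reads in 4 of 67 cells (5.97%, 1.65 to 14.6), at 79.7 CPM in cIHC-22, 26.8 in cIHC-14, 8.25 in cIHC-10 and 5.69 in cIHC-34. The 10 highest OHCs lay above every cIHC, and 63 cIHCs had no read. Pooled levels were 72.4 CPM (71.3 to 73.5) and 1.53 CPM (1.43 to 1.64), a log2 ratio of -5.56. The cell cIHC-22 held 69.5% of the cIHC counts; with the top cell of either group left out the ratio became -7.02, and without the cells with the fewest genes -8.44. Lhx3 (chr2:26200212-26208289) shares 188 of 3045 exon bases with the antisense gene Gm27196, which had 6 counts in all OHCs and 0 in cIHCs.

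Six2, a sine oculis-type homeodomain factor best known from kidney progenitors, separated the groups most cleanly. Its level per OHC was 65.1 to 873 CPM with a median of 377, and per cIHC 0 to 166 CPM with a median of 32.7. Every cIHC lay under the OHC median, 46 of the 67 lay under the lowest OHC, and 27 of the 32 OHCs lay above the highest cIHC. All OHCs and 61 of 67 cIHCs (91.0%, 81.5 to 96.6) still had reads. Pooled levels were 390.5 CPM (388.0 to 393.0) and 49.1 CPM (48.5 to 49.7), a log2 ratio of -2.99, and a cIHC was the higher cell in 1.77% of pairs. Its exons, at chr17:85684277-85688274, overlap no other annotated gene.

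Eya1, the partner of Six2-type proteins, lay close to the pooled level of OHCs. It ran from 0 over 54.3 to 471 CPM in OHCs and from 0 over 69.2 to 218 CPM in cIHCs, and the ranges overlapped throughout except for 4 OHCs above the highest cIHC. Pooled levels were 86.2 CPM (85.05 to 87.4) and 79.6 CPM (78.9 to 80.4), a log2 ratio of -0.12. This ratio turned to 0.35 with medians per cell, 0.03 without the highest cells, 0.05 among the cells with at least 5770000 reads and 0.34 among cells with Y-linked reads, and was -1.54 among cells with Xist reads, so no direction can be given. Eya1 had reads in 71.9% of OHCs (53.3 to 86.3) and 94.0% of cIHCs (85.4 to 98.4).

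Barhl1 likewise overlapped between the groups. Its values ran from 0 over 63.98 to 208 CPM in OHCs and from 0 over 47.4 to 300 CPM in cIHCs. Pooled levels were 73.9 CPM (72.8 to 74.98) and 65.99 CPM (65.3 to 66.7), a log2 ratio of -0.16, which was 0.62 among cells with Xist reads. A cIHC was the higher cell in 47.3% of pairs.

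Gata3 was read in all 99 cells. It ran from 64.8 over 354 to 847 CPM in OHCs and from 99.1 over 437 to 1261 CPM in cIHCs, with 6 cIHCs above the highest OHC and none below the lowest. The pooled 395 CPM (392 to 397) in OHCs and 478 CPM (477 to 480) in cIHCs gave a log2 ratio of 0.28, at percentile 51.2 of all compared genes and 0.03 above their median. Among cells with Y-linked reads the ratio was -0.17. Gata3 shares 155 of 3978 exon bases with Gm13256 on the other strand and 77 with 9230102O04Rik on the same strand, both under 5 CPM in each group.

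The early factors Atoh1 and Sox2 were near absent. Atoh1 had no read in any OHC, for which the exact 95% interval reaches up to 10.9% of cells and a limit of 3 cells gives 9.38%. In cIHCs it had 151 counts in cIHC-31, or 18.2 CPM, and 1 count in cIHC-53, so 99.3% of its 152 counts came from a single cell. Sox2 had 2 counts in OHCs, 1 each in 2 cells, and reads in 5 of 67 cIHCs (7.46%, 2.47 to 16.6). Those 5 were cIHC-50 at 76.0 CPM, cIHC-42 at 56.1, cIHC-24 at 53.7, cIHC-28 at 45.4 and cIHC-61 at 2.37 CPM. The pooled Sox2 level in cIHCs was 3.69 CPM, a log2 ratio to OHCs of 8.80 (6.95 to 11.85) that rests on these few cells; for Atoh1 the ratio was at least 4.49 against a floor of 3 counts over all OHCs.

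Sox2 marks supporting cells in the adult cochlea, so their markers were read beside it. In the 5 cIHCs with Sox2 the summed level of 10 supporting cell markers was 0 to 1.72 CPM, and Sox9, a defining one, was at 0 in each. Markers of other cell types were read in some of these cells: 5 glial markers, of a cell type that also uses Sox2, summed to 245 CPM in cIHC-24 and at most 0.122 CPM in the other 4, and 8 blood and macrophage markers to 87.6 CPM in cIHC-50 and 53.4 CPM in cIHC-61. Pooled over cIHCs, C1qb made up 48.2 of the 53.6 CPM of the blood and macrophage sum. It had reads in 35 of 67 cIHCs and in no OHC, while C1qa had no count in any cell. That sum had a median of 6.40 CPM per cIHC. The part of the glial and blood markers in the Sox2 values was not tested. In cIHC-31 and cIHC-53 the supporting cell sum was 0, and the glial sum was 5.79 and 99.65 CPM. Over all cells the supporting cell sum had a median of 0.055 CPM in OHCs and 0 in cIHCs, with single cells reaching 1662 and 1013 CPM. Of the 10 markers, 1 was at 0 in all OHCs and 3 were at 0 in all cIHCs.

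**Figure D3:**
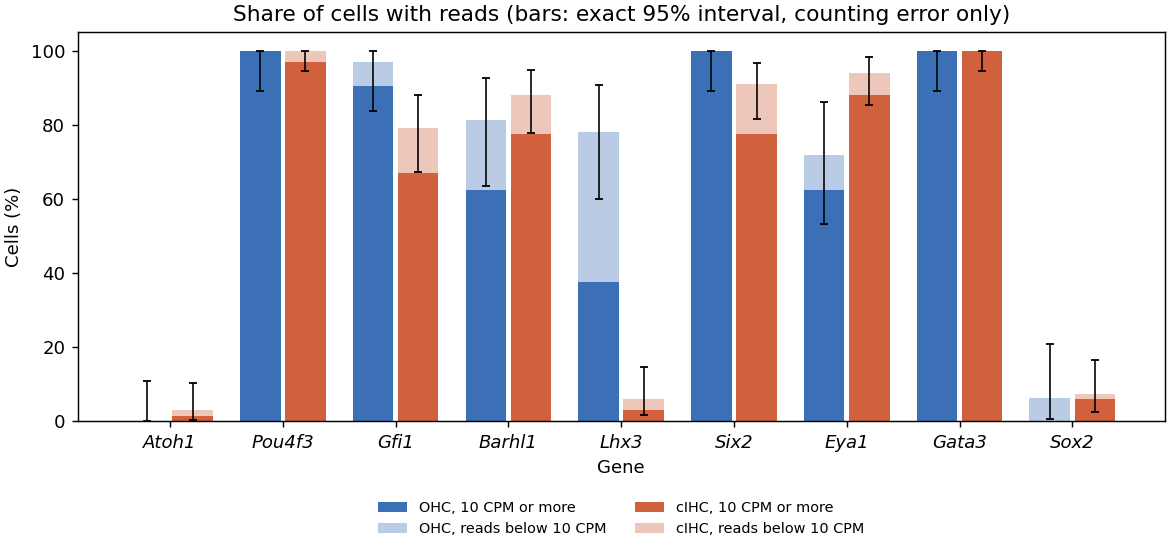
Share of cells with reads of each gene, in percent, for OHCs (blue) and cIHCs (orange), with 10 CPM or more in full colour and fewer reads in pale colour; bars are exact 95% intervals. Lhx3 goes from 78.1% to 5.97% of cells, Eya1 from 71.9% to 94.0%.

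Detection did not move one way. Of the 7 compared genes, 2 (Barhl1 and Eya1) had reads in a larger share of cIHCs, as did 81.3% of all compared genes, and 3 (Gfi1, Lhx3 and Six2) had reads in a smaller share, as did 13.1%. Pou4f3 and Gata3 were at 100% in both groups. In the 29 OHCs and 66 cIHCs deep enough to be thinned to 5770000 reads, the shares were for Gfi1 96.6% and 78.8%, for Lhx3 75.9% and 6.06%, and for Six2 100% and 90.9%. Reads of Pou4f3, Gfi1, Six2, Barhl1, Eya1 and Gata3 were found together in 20 of 32 OHCs (62.5%, 43.7 to 78.9) and 41 of 67 cIHCs (61.2%, 48.5 to 72.9). With Lhx3 added, the counts were 16 OHCs and 4 cIHCs. No cell had reads of all 9 genes: the range was 4 to 8 per OHC and 4 to 7 per cIHC.

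Levels of different genes were compared per kilobase of exon in GENCODE M21. In OHCs the order was Pou4f3 (263 CPM per kb), Six2 (184), Gfi1 (112), Gata3 (99.3), Lhx3 (23.8), Barhl1 (18.9) and Eya1 (11), with Sox2 at 0.004 and Atoh1 at 0. Neighbours were taken as separated where the upper one was higher in more than 75% of cells; Six2 from Gfi1 (84.4%) and Gata3 from Lhx3 (90.6%) were, and Pou4f3 from Six2 (65.6%) and Gfi1 from Gata3 (46.9%) were not. In cIHCs the order was Pou4f3 (128 CPM per kb), Gata3 (120.3), Six2 (23.2), Gfi1 (19.7), Barhl1 (16.9) and Eya1 (10.2), followed by Sox2 (1.8), Lhx3 (0.503) and Atoh1 (0.132). Gata3 stood above Six2 in 97.0% of cIHCs, whereas Pou4f3 and Gata3 were not separated (49.3%). Six2, Gfi1, Barhl1 and Eya1, which spanned 184 to 11 CPM per kb in OHCs, lay from 23.2 to 10.2 in cIHCs, and no 2 neighbours among these 4 were separated.

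The other genes of the network were taken from lists chosen by function, and are named here where they stood highest or lowest in their list. A gene that reached 10 CPM only in the group where it was higher, such as Id1, Zfpm1, Gata2, Nhlh1 or Tubb3, had to differ between the groups, so their counts are descriptions. Of 9 sine oculis-type, Eya and Dach genes outside the members, 6 reached 10 CPM, with a median log2 ratio of -0.36. Of these 6, 1 was at least 2-fold lower, as were 14.3% of all compared genes, and 5 lay within 2-fold. Eya4, a deafness gene, went from 344 to 171 CPM, a ratio of -1.01 that was -0.80, within 2-fold, in the thinned cells. Dach1, a corepressor of this network, had a ratio of -0.82 (0.62 and 1.41 CPM as medians per cell, which turns its direction). Six4 had 245 and 311 CPM, a ratio of 0.34 that was positive under every other setting. Six2 at -2.99 thus stood below all 6.

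Among 10 LIM homeodomain factors and their cofactors, 6 reached 10 CPM, with a median log2 ratio of -0.21. Of these, 1 was at least 2-fold lower and 1 higher, where 14.3% and 26.3% of all compared genes were. Isl1, a LIM homeodomain factor of hair cells and sensory neurons, ran from 30.6 over 518 to 1395 CPM in OHCs and from 0 over 0.791 to 274 CPM in cIHCs. It had reads in all OHCs and in 36 of 67 cIHCs, and its ratio was -4.11, with a range over the other settings of -9.35 to -3.81. Isl2, its paralog, had 32.3 and 66 CPM, a ratio of 1.03 that was 0.45 among cells with Y-linked reads. Ldb1, the cofactor that LIM homeodomain proteins bind, had a ratio of 0.71, and Lmo1, a LIM-only protein, -0.79, which turned to 0.24 among cells with Xist reads.

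The dimer partners of Atoh1, the E proteins, and the ID proteins that capture them, made a list of 7. All 7 reached 10 CPM in 1 or both groups, with a median log2 ratio of 0.38. Of these, 3 were at least 2-fold higher and 1 lower, where 26.3% and 14.3% of all compared genes were. Id1 had 2 counts in OHCs, in 2 cells, and 0 to 563 CPM per cIHC with a median of 84.2, with reads in 50 of 67; the ratio was 14.01 (12.16 to 17.06). Id3 went from 34.3 to 352 CPM, with reads in 10 of 32 OHCs and 60 of 67 cIHCs. Its ratio of 3.36 was 0.83 among cells with Y-linked reads, and 1 OHC held 41.1% of the OHC counts; without the highest cells it was 3.97. Id4 went the other way, from 253 to 63.2 CPM, a ratio of -2, with a range of -2.71 to -1.88 over the other settings. Tcf4, an E protein, had a ratio of -0.75. Tcf12, another E protein and the third gene at least 2-fold higher, is named after its value of 1.65 was seen; 1 OHC held 47.1% of its OHC counts, and without the highest cells the ratio was 2.45.

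Cofactors through which Gfi1 can repress formed a list of 7, of which 5 reached 10 CPM. Within 2-fold lay 4 of these, among them the histone deacetylase genes Hdac1 and Hdac2 at ratios of 0.46 and 0.88 and the corepressor gene Rcor1 at -0.16. Rcor1 turned to 0.32 without the highest cells and Hdac2 to -0.18 among cells with Xist reads. The 1 gene at least 2-fold higher, Zfpm1, is known foremost as a partner of GATA factors; it had 1.91 CPM in OHCs and 22.5 in cIHCs, a ratio of 3.56, with 57.6% of the OHC counts in 1 cell and a ratio of 4.63 without the highest cells. The list had a median ratio of 0.79, and 26.3% of all compared genes were at least 2-fold higher.

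Gfi1 is known to hold down neuronal genes in hair cells, and 10 neuronal genes were listed for that reason. They did not go one way, and 8 of them stayed under 10 CPM in both groups. The other 2, Nhlh1 and Tubb3, passed 10 CPM only in cIHCs, so that they were higher there says little; 26.3% of all compared genes were at least 2-fold higher. Nhlh1, a neuronal helix-loop-helix factor, had reads in 1 of 32 OHCs (58.4 CPM) and 28 of 67 cIHCs (up to 246 CPM), with pooled levels of 1.51 and 30.6 CPM. Tubb3, the neuronal beta-tubulin, had 9 counts in 1 OHC and reads in 14 of 67 cIHCs, with a pooled level of 10.9 CPM and 27.2% of the counts in 1 cell. Their ratios were 4.34 and 8.19. Without that 1 OHC, Nhlh1 had no count in OHCs. The rest are named after their values were seen. More reads in OHCs were found for Neurod1 (143 counts in 1 OHC, 0 in cIHCs), Elavl3 (11 and 1 counts) and Elavl2 (5 and 2 counts). More in cIHCs were found for Ina (1.78 and 5.54 CPM pooled), Stmn2 (0.066 and 1.02 CPM) and Elavl4 (1 and 288 counts). In cIHCs 99.8% of the Stmn2 and 98.6% of the Elavl4 counts came from 1 cell each. Without the highest cells Elavl4 had no count left in OHCs. Its ratio was then at least -0.78 against a floor of 3 counts over OHCs, which gives no direction. Both Nhlh2 and Dcx had no count. Markers of spiral ganglion neurons, whose list shares Tubb3 with this one, were higher in cIHCs too, with a pooled sum of 255.6 CPM in OHCs and 527.8 CPM in cIHCs. Per cell the sum ran from 0 over 232 to 910 CPM and from 164 over 537 to 879 CPM. Of the 8 marker genes 2 were at 0 in both groups and 4 reached 10 CPM, of which Nefl, Nefm and Tubb3 had ratios of 1.20, 3.20 and 8.19 and Snap25 0.25. Nefl and Nefm share 1108 of 3380 and of 5782 exon bases with each other on opposite strands, so their counts are uncertain to that extent. The part of these markers in the neuronal values was not tested.

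Of 7 genes known as targets of Pou4f3, 6 reached 10 CPM, with a median log2 ratio of -0.09. Of these, 2 were at least 2-fold lower and 2 at least 2-fold higher, where 14.3% and 26.3% of all compared genes were. Nr2f2, a nuclear receptor, went from a median of 181 CPM per OHC to 29.4 per cIHC, a pooled ratio of -2.15. Rbm24, an RNA-binding splicing factor, had a ratio of -1.19, or -0.70 among cells with Xist reads. Bdnf, the neurotrophin that hair cells supply to their neurons, went from 212 to 603 CPM, a ratio of 1.51, with cIHCs from 120 over 527 to 1445 CPM and the higher cell in 89.8% of pairs. Caprin1, an RNA-binding protein, had a ratio of 1.01, or 0.39 among cells with Xist reads. Nr2f2 and Bdnf share 643 of 8625 and 896 of 6217 exon bases with a gene on the other strand, so their counts are uncertain to that extent.

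**Figure D4:**
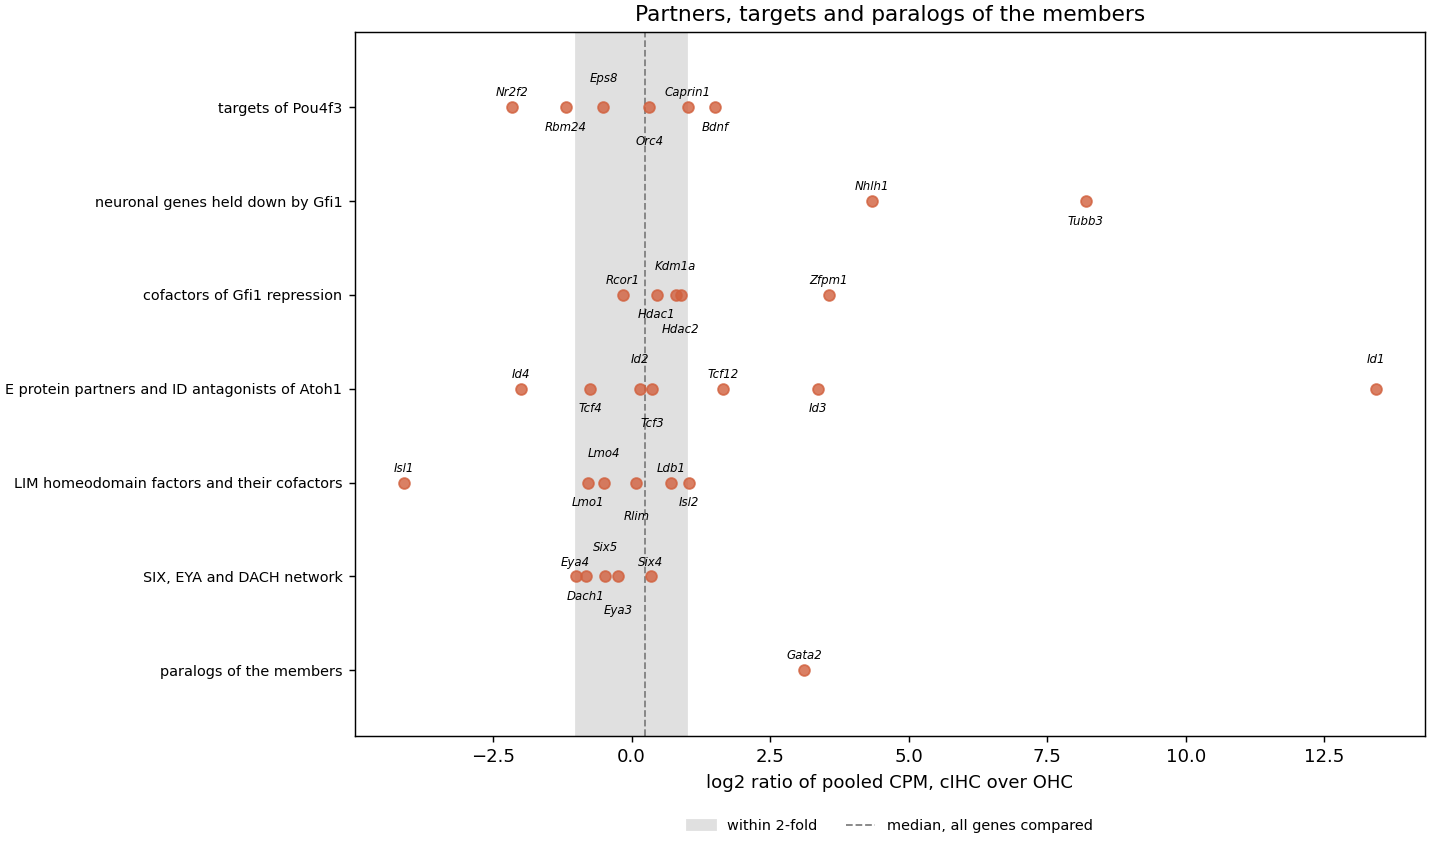
Log2 ratio of pooled CPM, cIHC over OHC, for the genes labelled, which belong to the 7 other lists and reached 10 CPM in 1 or both groups, with the 2-fold range in grey and the median of all compared genes dashed. Isl1 lies furthest to the left at -4.11 and Id1, with its OHC sum set to 3 counts, furthest to the right at 13.43; Zfpm1 stands in the cofactor list but is known as a partner of GATA factors.

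Close relatives of the members were read little. Of 8 paralogs, Gfi1b, Barhl2, Sox1 and Sox3 had no count in any cell. Gata2, the relative of Gata3, was the 1 paralog above 10 CPM, with reads in 4 of 32 OHCs and 33 of 67 cIHCs, pooled levels of 2.61 and 22.6 CPM and a ratio of 3.11, or 3.85 without the highest cells. Pou4f2 had no count in OHCs and reads in 6 of 67 cIHCs (4.53 CPM pooled), Pou4f1 had 0.145 and 0.568 CPM, and Lhx4 had 3 counts in 1 OHC and a pooled cIHC level of 0.487 CPM, 97.7% of it in 1 cell.

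Across cells of 1 group most pairs of members had correlations within the range of most pairs of all genes. The 21 pairs among 7 genes with reads in at least 50% of the OHCs had a median Spearman correlation of -0.05 (lowest -0.38, for Six2 and Eya1, highest 0.30, for Pou4f3 and Barhl1). The 15 pairs among 6 genes in cIHCs had a median of 0.04. Their highest values were for Gata3 with Pou4f3 (0.35) and with Gfi1 (0.32), then Pou4f3 with Gfi1 (0.23). The lowest was for Pou4f3 with Barhl1 (-0.24). Pairs of all genes detected as often had medians of 0.01 in both groups. Their 5th and 95th percentiles were -0.29 and 0.30 in OHCs and -0.21 and 0.22 in cIHCs. The cIHC pairs named above, and Six2 with Eya1 in OHCs, lay outside these percentiles. Given the number of genes with reads, Pou4f3 in cIHCs was at -0.13 with Barhl1 and at 0.21 with Gfi1, within the percentiles. Gata3 in cIHCs was then at 0.30 with Pou4f3 and with Gfi1, and Six2 with Eya1 in OHCs at -0.36. The percentiles themselves were not adjusted in this way. Over the 67 cIHCs the correlation with the Tbx2 level was -0.35 for Gfi1, -0.21 for Pou4f3 and between -0.05 and 0.15 for Barhl1, Six2, Eya1 and Gata3; over 7284 genes the 5th percentile was -0.28. With the number of genes with reads taken into account, the value was -0.34 for Gfi1 and -0.10 for Pou4f3. Pou4f3 in cIHCs also went with the number of genes with reads, at -0.40. These are descriptions over 32 and 67 cells that share libraries' depth and an unknown number of animals.

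**Figure D5:**
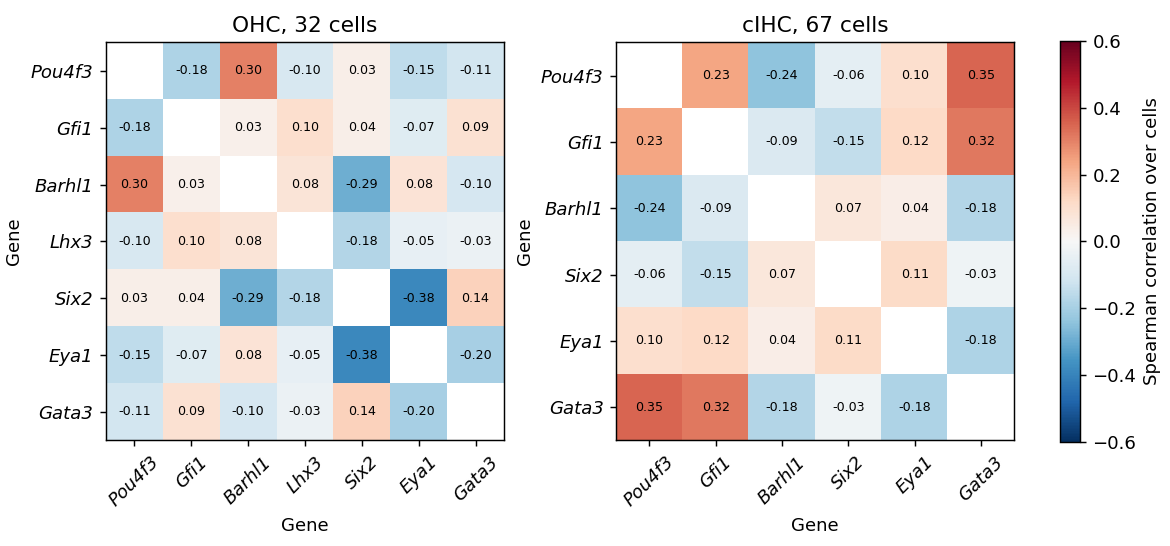
Spearman correlation over cells of log2(CPM + 1) between members detected in at least 50% of cells, for 32 OHCs (left) and 67 cIHCs (right), on a scale from -0.6 to 0.6. Values lie between -0.38 and 0.35.

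In both groups, 5 members were detected in at least 75% of cells, and the genes most like them were sought among 2280 genes that also had a mean of at least 10 CPM in each group, by the mean of the 2 within-group Spearman correlations. For Gfi1 they were Tuba8 (0.51 in each group), Lrrc8b (mean 0.47) and Lysmd2 (0.45). For Pou4f3 they were Smpx (0.40), Srrm3 (0.39) and Taf10 (0.39). Barhl1 had Clu, Nbdy and Bex2 (0.37, 0.37 and 0.36), Gata3 had Id4, Jak1 and Hsd17b7 (0.37, 0.35 and 0.34), and Six2 had Dpy30 and Rbm26 (0.36 and 0.33). Some of these means join unlike groups. Rbm26 had 0.52 in OHCs and 0.14 in cIHCs, Dpy30 0.49 and 0.22, and Lrrc8b 0.62 and 0.31. Of the genes named, only Smpx had the higher value in cIHCs (0.35 and 0.45). The median over all 2280 genes was between 0.00 and 0.01 for these members. The likeness is over 32 OHCs and 67 cIHCs and picks the highest of many values.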

How the data were processed

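Single picked cells were converted to full-length cDNA with the Smart-Seq HT kit and tagmented with the TruePrep kit, per the labels' protocols. The authors deposited 1 table of whole-number read counts, with 55291 gene symbols and 99 cells. HISAT2 2.2.1, StringTie 2.2.1, featureCounts 2.0.1 and the mm10 build are named per the submitters' processing notes; the annotation, strand setting and filters are not given in the sources used here. The table had 0 columns of no sample, and 0 pairs of cells were identical. Columns and groups were assigned by title.

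Counts were summed per group, divided by the group total to give CPM, and compared as log2 ratios of cIHC over OHC. Sums under 3 counts were set to 3 for ratios and medians; for 1 to 3 counts the text prints the unfloored ratio. Compared genes reached 10 CPM in 1 group or in both, and 2-fold was the threshold. Intervals are exact Poisson for CPM, exact binomial for ratios and Clopper-Pearson for shares. Correlations used log2(CPM + 1). Exons came from GENCODE M21 (GRCm38), which holds 96.4% of the symbols and need not be the authors' annotation; promoter sequences came from RefSeq (GRCm38.p6). The calculation of ratios was checked on simulated counts of genes with at least 10 CPM in OHCs. That check covered neither sparse genes nor differences between animals.

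Named genes are the 9 members, the 2 highest and 2 lowest ratios of each list among the genes that reached 10 CPM, the paralogs, and for each member detected in at least 75% of the cells of both groups the 3 most correlated genes; 2 genes that this rule names are not reported here or plotted, though list counts and medians include them where they are list members. The members and lists were chosen with earlier results of these data known. The alternatives were means or medians of CPM per cell, dropping each gene's top cell, TMM (edgeR 4.0.16, R 4.3.3), median-of-ratios scaling, other totals, leaving out cells with few genes, cells with Xist or with Y-linked reads at 10 CPM, thinning to 5770000 reads, which leaves out 3 OHCs and 1 cIHC, the same cells at full depth (chosen after seeing the data), detection at 10 CPM, and other correlations. Scripts ran in Python 3.11.15; the packages were scipy 1.17.1, pandas 2.3.3, numpy 2.4.6 and, for plots, matplotlib 3.10.9.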

Additional observations from a re-analysis of the deposited data

How the results depend on the processing

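No paired analysis was possible because cell numbers in the labels pair nothing and no test was made. The count of 4 members at least 2-fold lower was 3 or 4 under every alternative, though not always of the same genes: among cells with Xist reads Eya1 took the place of Pou4f3. No member above 10 CPM was at least 2-fold higher under any of them. TMM and median-of-ratios scaling moved the median of all compared genes by -0.19 and -0.20, the 4 OHCs with Xist reads by 0.39 and medians per cell, which need a median above 0, by 0.53.

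The median over the 9 members, -0.16, kept its sign. It was -0.23 with means and -0.85 with medians of CPM per cell, -0.60 without the highest cells, -0.36 with TMM factors and -0.37 with median-of-ratios scaling. It was -0.21 without mitochondrial genes and -0.24 without the most abundant genes in the totals, -0.24 without cells with few genes, -0.27 and -1.66 among cells with Xist and with Y-linked reads, -0.073 among the cells deep enough to be thinned, -0.051 after thinning them and -1.04 over the 7 genes above 10 CPM. The values of -0.85, -0.60 and -1.66 are over 6, 8 and 7 members, since the others had no ratio there.

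Single genes that turned direction were Eya1, with 0.35 for medians per cell, 0.028 without the highest cells, 0.050 among the cells deep enough to be thinned and 0.34 among cells with Y-linked reads, Barhl1 with 0.62 among cells with Xist reads and Gata3 with -0.17 among cells with Y-linked reads; the cause was not tested. Lhx3, Six2 and Gfi1 stayed at least 2-fold lower wherever they had a ratio, with ranges of -8.44 to -4.36, -3.53 to -2.20 and -3.08 to -2.42. The number of members with reads in a larger share of cIHCs was 4 of 9 with the sparse genes Atoh1 and Sox2 counted. It was 2 of 9 among cells with Y-linked reads. Among the 7 compared members it was 2 over all cells, where 81.3% of all compared genes had reads in a larger share of cIHCs. The median correlation among members in OHCs, -0.05, was 0.00 (0.0024) as Pearson's r.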

Other observations

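The cell cIHC-22 held the highest level among cIHCs of 3 members at once, a pattern chosen after its values were seen. It had 1293 CPM of Pou4f3, 300 CPM of Barhl1 and 79.7 CPM of Lhx3, and 40.8 CPM of Gfi1, close to the cIHC median of 36.7. Its Ocm level of 4718 CPM was the highest of the cIHCs too, as were those of the OHC markers Chrna10 (201 CPM) and Lbh (91.8 CPM). Chrna10 shares 1025 of 2628 exon bases with Art1 on the other strand. The OHC markers Slc26a5 and Ikzf2 were at 0 in this cell, as was Isl1. Aqp11, Strip2, Sri and Lmod3 were highest in other cIHCs. Slc17a8, the IHC glutamate transporter gene, was at 1373 CPM in cIHC-22 and Tbx2 at 232 CPM. The other cIHCs with Lhx3 reads had Ocm at 0, 1937 and 212 CPM (cIHC-14, cIHC-10 and cIHC-34), and Slc26a5 at 0. Of the 2 cells with Atoh1 reads, cIHC-31 had 2553 CPM of Tbx2 and 1107 CPM of Gata3, and cIHC-53, with 1 count, had 464.7 and 993 CPM.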
